A study of Rattus norvegicus with 6 samples.

Results

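The pregnane X receptor (PXR, gene Nr1i2), the constitutive androstane receptor (CAR, gene Nr1i3), liver cytochrome P450 genes of the Cyp2b and Cyp3a families, which hold known targets of both, and the P450 reductase gene Por were described in 6 rat liver libraries. The genes were chosen by name. Of 10 names, 8 matched a row of the table of 16209 genes exactly, and Cyp3a23-3a1 matched the row Cyp3a23/3a1 through a RefSeq synonym. Cyp3a62 was not analysed here. All 9 genes found had enough reads to be tested. The rats had liver fibrosis. A control group of 3 received vehicle, and a treated group of 3 received ginkgetin, a biflavone found in Ginkgo, at 10 mg/kg/day. Both groups were fibrotic, and no liver without fibrosis was among the samples. The sources used here do not give how the fibrosis was induced, the strain, age and sex of the rats, the route and length of treatment, or whether each replicate was a separate animal. The columns taken as vehicle are headed TAA, a name absent from the labels, and every direction below rests on that assignment.

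PXR and CAR are nuclear receptors of the hepatocyte. They sense foreign chemicals, steroids and bile acids, pair with the retinoid X receptor, and bind repeats of a short hexamer near genes of drug metabolism. PXR is best known for inducing Cyp3a genes and CAR for inducing Cyp2b genes, with much overlap. The P450 enzymes made from these genes oxidise drugs and steroids with electrons passed on by the reductase that Por encodes. Chronic liver injury is known to lower many of them.

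In the RefSeq promoter table (build GRCr8, not the build of the expression table), all 10 names had a window of 250 bases before the gene start. The windows were searched on both strands for the hexamers AGGTCA and AGTTCA, and for pairs of these in direct repeat with 3 bases between (DR3) or 4 (DR4), or everted with 6 between (ER6). A hexamer inside a pair was also counted as a hexamer. At least 1 hexamer lay in 7 of the 10 windows and in 24.3% of all 33469 windows of the table. DR3 lay in the windows of Cyp3a2 and Cyp3a23-3a1 and in 0.0388% of all windows, 13 windows of 10 distinct symbols. DR4 and ER6 were in none of the 10 windows and in 0.0149% and 0.00299% of all. Sequence farther from the gene start was not searched, so a motif absent here may still lie beyond the window. The windows of Cyp3a2 (chr12:14343858-14344107, minus strand), Cyp3a23-3a1 (chr12:14398804-14399053, minus strand) and Cyp3a9 (chr12:21960161-21960410, minus strand) are shown to set both DR3 windows beside a family member that has a single hexamer. Each is written 5′ to 3′ along the gene, ending at the base before the start, with every hexamer on either strand in capitals.
Cyp3a2: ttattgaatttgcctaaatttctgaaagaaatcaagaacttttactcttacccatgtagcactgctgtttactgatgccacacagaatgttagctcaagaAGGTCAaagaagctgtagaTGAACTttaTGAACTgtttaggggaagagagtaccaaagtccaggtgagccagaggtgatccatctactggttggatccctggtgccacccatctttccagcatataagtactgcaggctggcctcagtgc
Cyp3a23-3a1: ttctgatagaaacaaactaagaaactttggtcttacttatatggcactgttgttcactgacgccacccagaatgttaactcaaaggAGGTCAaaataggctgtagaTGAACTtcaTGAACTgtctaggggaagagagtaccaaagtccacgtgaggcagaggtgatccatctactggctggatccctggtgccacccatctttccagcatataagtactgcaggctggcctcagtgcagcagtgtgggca
Cyp3a9: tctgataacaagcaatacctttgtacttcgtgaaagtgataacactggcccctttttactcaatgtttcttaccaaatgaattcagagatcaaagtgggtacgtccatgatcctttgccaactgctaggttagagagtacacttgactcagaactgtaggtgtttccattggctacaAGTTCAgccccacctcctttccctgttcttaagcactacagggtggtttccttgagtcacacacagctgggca
The DR3 of Cyp3a2 began at position -131 (TGAACTTTATGAACT) and that of Cyp3a23-3a1 at -144 (TGAACTTCATGAACT), counted back from -1 at the last base before the gene start. Both windows also held AGGTCA further upstream, at -150 and -164. Aligned to each other, they were identical at 207 of 231 aligned bases (89.6%). The window of Cyp3a9 held AGTTCA at -73. A match of letters is a description of the sequence, and binding was not measured here.

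All 9 genes had higher mean log2 values with ginkgetin than with vehicle, as did 48.6% of all 14639 genes tested, but 0 of 9 passed the test (limma, Benjamini-Hochberg adjusted p under 0.05 over all genes). Of all genes 0.0137% passed. At an unadjusted p under 0.05 there were 4 of 9, all higher with ginkgetin, beside 7% of all genes on that side. On reads recovered from the values, edgeR also called 0 of 9, beside 0% of all genes (2893 genes had an unadjusted p under 0.05), and DESeq2 called 1 of 9, Nr1i3, beside 9.39%. In 2 of 9, Nr1i3 and Cyp3a9, the ginkgetin libraries all lay above the vehicle libraries, against 11.4% of all genes. The median log2 fold change of the 9 genes was 1.53, beside -0.02 over all genes. Fold changes are differences of mean log2(value + 1), where a value is a normalized read count.

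**Figure D1:**
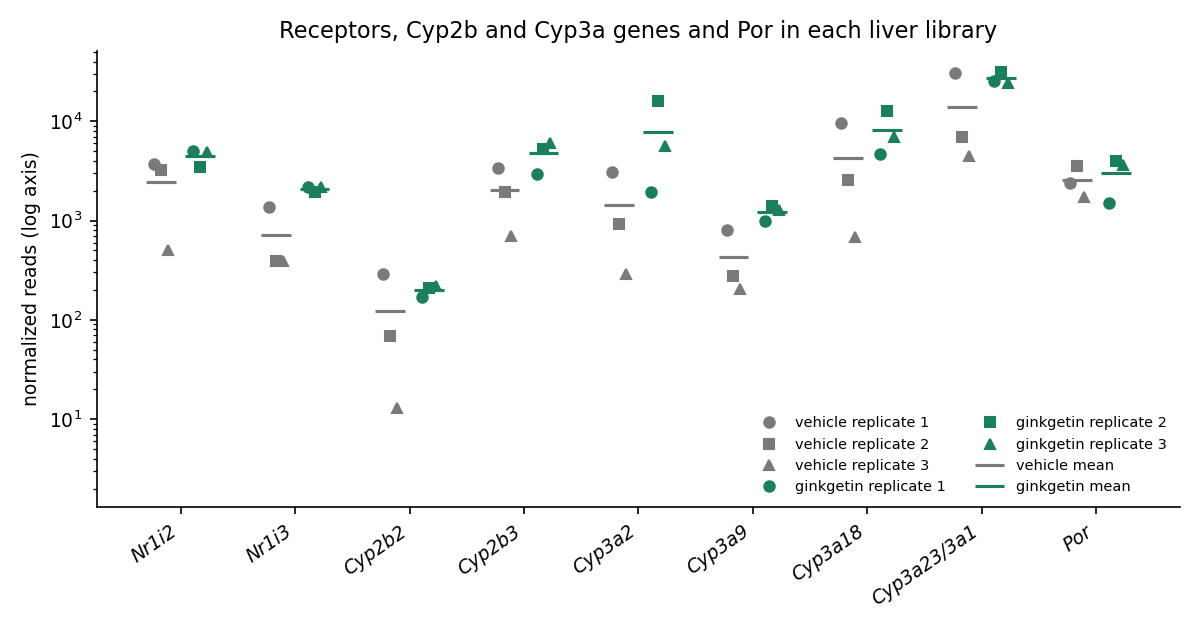
Normalized reads (log axis) of the 9 genes in each library, with vehicle in grey, ginkgetin in green, 1 symbol per replicate and lines at group means. Vehicle replicate 1 lies above at least 1 ginkgetin library for 7 of 9 genes, and vehicle replicate 3 is the lowest vehicle library for 8 of 9. Heights of different genes are not comparable because reads were not divided by transcript length.

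The vehicle libraries differed more among themselves than the ginkgetin libraries did. The log2 SD was larger with vehicle in 8 of 9 genes, at a median of 1.45 against 0.31, where the medians over all genes tested were 0.51 and 0.39. Vehicle replicate 1 was the highest vehicle library for 8 genes, all but Por, and lay above at least 1 ginkgetin library for 7. Vehicle replicate 3 was the lowest vehicle library for 8 genes, all but Nr1i3. This library also stood apart in its cell type markers. The summed level of the 20 hepatocyte markers in it was 636037 normalized reads, against 2271611 to 3085341 in the other vehicle libraries and 2586781 to 3725434 with ginkgetin. The 11 stellate cell and fibroblast markers summed to 125388 in it, against 11786 and 13896 in the other vehicle libraries and 3649 to 7014 with ginkgetin. In bulk tissue, fewer hepatocytes and less of a transcript per hepatocyte cannot be told apart. Libraries held 13372367 to 14933853 reads in genes. All normalized values of vehicle replicate 3 summed to 8265117, against 15863575 and 11768875 in vehicle replicates 1 and 2. With ginkgetin these sums were 16250451 to 16991873, so the summed marker levels above are not shares of a library.

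Among the receptors, CAR had the smallest p of the 9 genes. For Nr1i3, the vehicle livers gave 1356, 391 and 396 normalized reads in replicates 1 to 3, and the ginkgetin livers gave 2196, 1924 and 2169. The groups did not overlap, and the ginkgetin libraries lay within 1.14-fold of each other while the vehicle libraries spanned 3.47-fold. The log2 fold change was 1.81 (SE 0.471), or 3.52-fold on this scale, with a limma adjusted p of 0.115. It was 1.52 without vehicle replicate 3. Without vehicle replicate 1 it was 2.41 and passed (adjusted p = 0.0122, in a range of 0.0122 to 0.327 over all alternatives). It also passed in DESeq2 (log2 fold change 1.56, adjusted p = 0.0419), and did not pass in edgeR (adjusted p = 0.164).

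PXR differed less. For Nr1i2, the vehicle livers gave 3712, 3197 and 510 normalized reads in replicates 1 to 3, and the ginkgetin livers gave 5076, 3444 and 4944. Ginkgetin replicate 2 lay below vehicle replicate 1, so the groups overlapped, and the low value was that of vehicle replicate 3 alone. On the log2 scale the difference was 1.28 (SE 0.717, limma adjusted p = 0.342), and it was 0.36 without vehicle replicate 3.

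The 2 receptors differed in vehicle replicate 2, which lay near vehicle replicate 1 for PXR and near vehicle replicate 3 for CAR. Both were lower in vehicle replicate 3 than in any ginkgetin library. Of the 7318 genes more abundant than the median gene, the closest profiles to Nr1i2 over the 6 libraries were those of Rxrg, a retinoid X receptor gene (root-mean-square difference 0.08 log2 units after centring), Cbs, cystathionine beta-synthase (0.15), and Xylb, a xylulokinase gene (0.15). Close to Nr1i3 were Plekhb1 (0.10) and Ndrg2 (0.17). Cyp3a9 ranked 4 in likeness to Nr1i3 (0.24) and Cyp3a23/3a1 ranked 31 (0.38), while Nr1i2 ranked 1488 (0.83). The other genes described here were farther down, with Cyp2b3 at 301, Cyp3a18 at 1474, Cyp2b2 at 1655, Cyp3a2 at 4630 and Por at 4783. In likeness to Nr1i2, the P450 genes and Por ranked from 490 (Cyp2b3) to 5383 (Cyp3a2).

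Of the Cyp2b genes, Cyp2b2 encodes an enzyme known for its strong induction by phenobarbital, and Cyp2b3 a relative that phenobarbital is not known to induce. The 2 are neighbours on chromosome 1 in RefSeq. Cyp2b1, the closest paralog of Cyp2b2, was not analysed here, and reads of such paralogs may be shared. For Cyp2b2, the vehicle livers gave 289, 68.2 and 12.9 normalized reads in replicates 1 to 3, and the ginkgetin livers gave 170, 208 and 221. The highest library of all was vehicle replicate 1, so no ginkgetin library lay above the vehicle range. The lowest value rested on 21 reads. Its log2 fold change was 1.61 (SE 0.930, limma adjusted p = 0.355), with 0.49 without vehicle replicate 3 and 2.69 without vehicle replicate 1. For Cyp2b3, the vehicle livers gave 3411, 1925 and 703 normalized reads in replicates 1 to 3, and the ginkgetin livers gave 2972, 5219 and 6109. Here 2 of 3 ginkgetin libraries lay above every vehicle library. Its log2 fold change was 1.45 (SE 0.588, limma adjusted p = 0.224), or 0.83 when vehicle replicate 3 was left out.

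The Cyp3a genes encode steroid and drug hydroxylases, and reads may be shared among them. Cyp3a2 and Cyp3a23-3a1 are neighbours on chromosome 12. Cyp3a2 and Cyp3a18 are known as male-predominant enzymes of the adult rat, and Cyp3a9 is known to be more abundant in females. The sex of the rats is not given, and the Y-linked gene Eif2s3y, named after its values were seen, had 477 to 872 normalized reads in the 6 libraries.

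Cyp3a2 had the largest fold change of the 9 genes. For Cyp3a2, the vehicle livers gave 3093, 914 and 288 normalized reads in replicates 1 to 3, and the ginkgetin livers gave 1955, 15933 and 5575. Ginkgetin replicate 1 lay below vehicle replicate 1, and ginkgetin replicate 2 lay far above all others. The log2 fold change was 2.58 (SE 0.963, limma adjusted p = 0.196). It was 1.73 without vehicle replicate 3 and 1.82 without ginkgetin replicate 2.

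Cyp3a9 did not overlap between groups. For Cyp3a9, the vehicle livers gave 800, 277 and 204 normalized reads in replicates 1 to 3, and the ginkgetin livers gave 985, 1395 and 1290. Vehicle replicate 1 lay close under ginkgetin replicate 1. Its log2 fold change was 1.76 (SE 0.473, or 3.39-fold on this scale, limma adjusted p = 0.12). Without vehicle replicate 3 it was 1.36, and without vehicle replicate 1 it was 2.34 and passed (adjusted p = 0.017, in a range of 0.017 to 0.337 over all alternatives).

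Cyp3a18 and Cyp3a23/3a1 were as high in vehicle replicate 1 as with ginkgetin. For Cyp3a18, the vehicle livers gave 9618, 2572 and 688 normalized reads in replicates 1 to 3, and the ginkgetin livers gave 4697, 12659 and 6900. Only ginkgetin replicate 2 lay above vehicle replicate 1. Cyp3a23/3a1 encodes a dexamethasone-inducible enzyme of the family. For Cyp3a23/3a1, the vehicle livers gave 30413, 6895 and 4503 normalized reads in replicates 1 to 3, and the ginkgetin livers gave 25218, 31726 and 24323. Its ginkgetin libraries lay within 1.30-fold of each other, and again only ginkgetin replicate 2 lay above vehicle replicate 1. The log2 fold changes were 1.53 (SE 0.886) for Cyp3a18 and 1.45 (SE 0.754) for Cyp3a23/3a1, with limma adjusted p of 0.356 and 0.31. Without vehicle replicate 3 they were 0.58 and 0.89. Without vehicle replicate 1 they were 2.48 and 2.27, and the latter passed (adjusted p = 0.0484, in a range of 0.0484 to 0.546 over all alternatives). In that setting 3 of 9 genes passed, beside 4.75% of all genes.

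**Figure D2:**
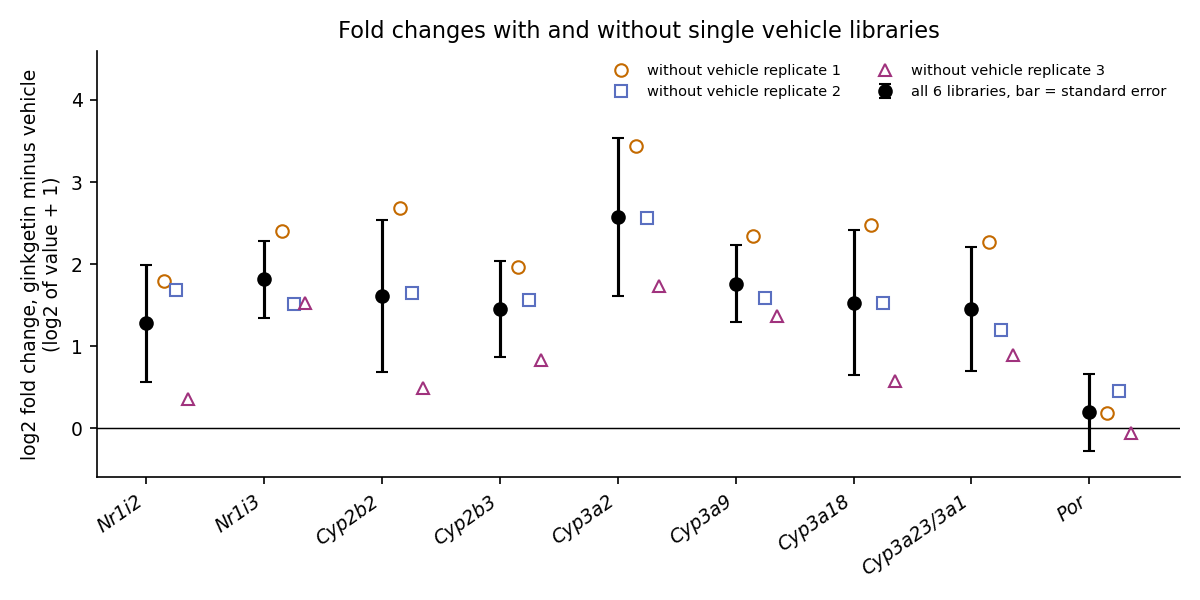
Log2 fold change of each gene (ginkgetin minus vehicle, log2 of value + 1) over all 6 libraries with its standard error as bars, and with each vehicle library left out as open symbols. Without vehicle replicate 3 all values but that of Por stay above 0 and are smaller, from 0.36 for Nr1i2 to 1.73 for Cyp3a2.

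The make-up of the Cyp3a reads differed between livers of 1 group. For the 4 genes summed, the vehicle livers gave 43924, 10659 and 5683 normalized reads in replicates 1 to 3, and the ginkgetin livers gave 32855, 61712 and 38089. Cyp3a2 made up 7.04%, 8.58% and 5.07% of this sum in the vehicle livers and 5.95%, 25.8% and 14.6% in the ginkgetin livers. Only ginkgetin replicates 2 and 3 lay above the vehicle range. The mean share was 6.89% ± 1.76 (SD, n = 3) for vehicle against 15.5% ± 9.96 (SD, n = 3) for ginkgetin (exact two-sided permutation p = 0.3, where the smallest possible is 0.1). The difference of 8.57 percentage points was 3.40 without ginkgetin replicate 2. Cyp3a23/3a1 gave 71.1% ± 7.44 and 64.0% ± 12.7 (SD, n = 3 each), with an exact permutation p of 0.4, and its difference of -7.05 percentage points was -0.75 without ginkgetin replicate 2. Cyp3a18 gave 19.4% ± 6.40 and 17.6% ± 3.14, and Cyp3a9 gave 2.67% ± 0.885 and 2.88% ± 0.572. These shares follow reads and transcript length, so they are compared between libraries and not between genes.

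**Figure D3:**
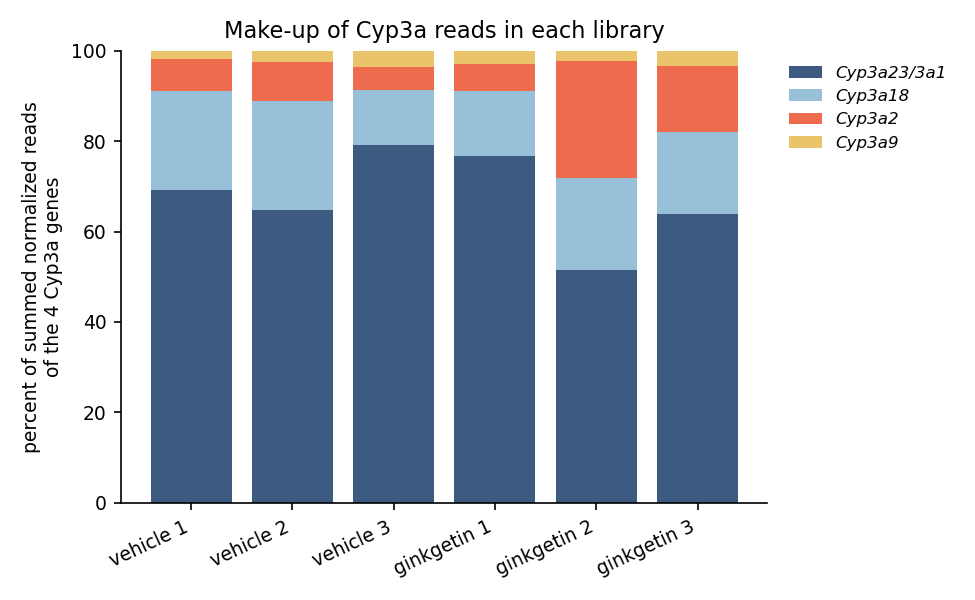
Percent of the summed normalized reads of the 4 Cyp3a genes that each gene contributes, by library. Cyp3a2 takes 25.8% in ginkgetin replicate 2 and 14.6% in ginkgetin replicate 3, against 5.07% to 8.58% in the other 4 libraries.

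Por, which encodes the electron donor of all microsomal P450 enzymes, did not differ beyond the spread between libraries. For Por, the vehicle livers gave 2405, 3520 and 1710 normalized reads in replicates 1 to 3, and the ginkgetin livers gave 1494, 3948 and 3655. The lowest library was ginkgetin replicate 1. The log2 fold change was 0.19 (SE 0.470, limma adjusted p = 0.836). Its direction turned to -0.25 with quantile scaling and -0.33 with equal library totals, a scaling that moved the median of all genes to -0.53.

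Because hepatocyte markers differed between libraries, each gene was also set against the mean log2 level of the 20 hepatocyte markers of the same library. The vehicle livers had a marker mean of 15.5, 15.1 and 13.1, and the ginkgetin livers 15.5, 15.7 and 15.9. Relative to it, 8 of 9 genes were higher with ginkgetin, at a median of 0.41 log2 units over the 9, and the groups overlapped for all 9. Relative levels were computed for these 9 genes only, so no share over all genes stands beside these counts. Whether such a difference is particular to the 9 genes was not tested. The relative level of Nr1i3 was -5.13, -6.44 and -4.47 in the vehicle livers and -4.37, -4.80 and -4.80 in the ginkgetin livers. Vehicle replicate 3 lay within the ginkgetin range, and vehicle replicate 2 was the lowest. The mean difference was 0.69 (exact permutation p = 0.3), 0.15 without vehicle replicate 2 and 1.13 without vehicle replicate 3. Cyp3a2 differed by 1.46 (exact permutation p = 0.2) and Cyp3a9 by 0.64 (exact permutation p = 0.3). Without ginkgetin replicate 2 the former was 0.71, and without vehicle replicate 2 the latter was 0.22. The differences were 0.16 for Nr1i2, 0.49 for Cyp2b2, 0.33 for Cyp2b3, 0.41 for Cyp3a18 and 0.33 for Cyp3a23/3a1, and those of Nr1i2 and Cyp3a23/3a1 crossed 0 when 1 library was left out (to -0.049 and -0.17). Por lay on the other side, at -0.93 (exact permutation p = 0.3), with its highest relative level in vehicle replicate 3. No p below 0.1 is possible with 3 against 3 libraries.

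**Figure D4:**
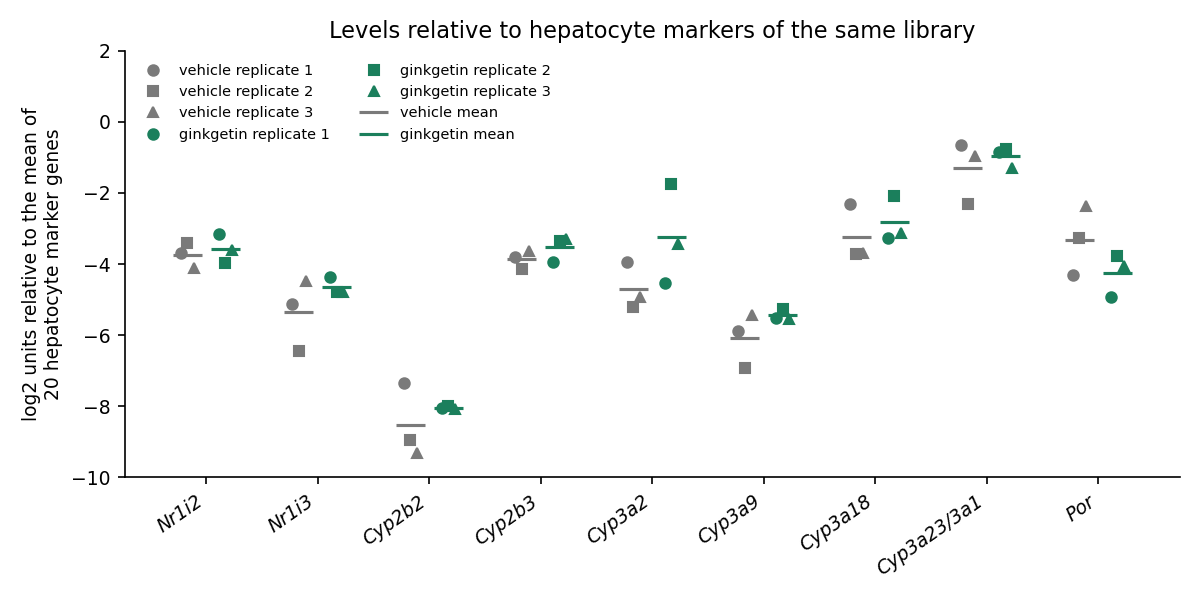
Log2 level of each gene minus the mean log2 level of 20 hepatocyte markers in the same library, with vehicle in grey, ginkgetin in green and lines at group means. The groups overlap for all 9 genes, and the widest gap between means is that of Cyp3a2 (1.46), which is 0.71 without ginkgetin replicate 2.

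Other genes of the pathway were taken from fixed lists, with 0 genes past the threshold in limma in any of them. Of 17 receptor partners and coregulators tested, 14 were higher with ginkgetin and 3 lower, at a median of 0.82. That median was 0.51 without vehicle replicate 3 and 0.30 with equal library totals. In limma, 4 of the 17 had an unadjusted p under 0.05, all higher. Of all genes tested, 48.6% were higher, and 7% were higher at that unadjusted p. Rxra encodes a retinoid X receptor that pairs with PXR and CAR. For Rxra, the vehicle livers gave 304, 295 and 257 normalized reads in replicates 1 to 3, and the ginkgetin livers gave 734, 1926 and 784. These groups did not overlap, and vehicle replicate 3 was close to the other vehicle libraries. Rxra differed by 1.86 on the log2 scale (SE 0.370, limma adjusted p = 0.0886), or by 1.79 when vehicle replicate 3 was left out. Nr0b2, which encodes the corepressor SHP, was at 1.89 (SE 0.556) with overlapping groups. Nr3c1, the glucocorticoid receptor gene, was at 0.79 (SE 0.280) without overlap. Groups did not overlap in 2 of the 17 genes, both with ginkgetin higher, beside 11.4% of all genes.

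Other target genes of PXR and CAR did not lie on 1 side. Of 24 named, 17 were tested. Among these, 11 were higher and 6 lower, at a median of 0.42, 0.07 without vehicle replicate 3 and -0.10 with equal library totals. The lists share some names. Cyp2a1, Cyp2c6v1 and Cyp2c7 were also named among other liver P450 genes, and Alas1 also among genes of haem supply. At an unadjusted limma p under 0.05 there was 1 higher and 2 lower, beside 1025 higher and 1938 lower of all 14639 genes. Of all genes, 48.6% had a higher mean with ginkgetin. Abcc2 encodes a canalicular export pump. For Abcc2, the vehicle livers gave 1858, 1193 and 204 normalized reads in replicates 1 to 3, and the ginkgetin livers gave 2836, 6164 and 4873. The log2 fold change was 2.52 (SE 0.763), with a limma adjusted p of 0.145. Abcc3 encodes an export pump of the basolateral membrane. For Abcc3, the vehicle livers gave 97.3, 358 and 177 normalized reads in replicates 1 to 3, and the ginkgetin livers gave 79.6, 57.8 and 30.9. Its log2 fold change was -1.79 (SE 0.543), also with a limma adjusted p of 0.145. Ces2c encodes a carboxylesterase. For Ces2c, the vehicle livers gave 72.4, 264 and 41.1 normalized reads in replicates 1 to 3, and the ginkgetin livers gave 12.2, 4.63 and 11.1. Its log2 fold change was -3.28 (SE 0.734), with a limma adjusted p of 0.0963, and rests on few reads with ginkgetin. The groups of these 3 genes, those of smallest p in the list, did not overlap. Of the 17 genes, 2 lay wholly higher and 3 wholly lower with ginkgetin. Groups did not overlap in 27.4% of all genes, in either direction. For Abcc3 and Ces2c the highest library was vehicle replicate 2.

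Genes of P450 electron transfer and haem supply were higher in 12 of 14, at a median of 0.63. That median was 0.33 without vehicle replicate 3 and 0.10 with equal library totals. In limma, 4 of the 14 had an unadjusted p under 0.05, all higher. Of all genes tested, 48.6% were higher, and 7% were higher at that unadjusted p. Fech, ferrochelatase, the last enzyme of haem synthesis, had a log2 fold change of 1.0 (SE 0.243), Cyb5b, a cytochrome b5 gene, one of 0.65 (SE 0.232), and Pgrmc1, a haem-binding partner of P450 enzymes, one of 1.62 (SE 0.609). Groups did not overlap in these 3, which had the smallest p of their list. Over the whole list they did not overlap in 6 of 14 genes, all with ginkgetin higher, beside 11.4% of all genes. Of 24 other liver P450 genes, 20 were higher, beside 48.6% of all genes. At an unadjusted limma p under 0.05, 10 of the 24 were higher, beside 7% of all genes. No gene of the list was lower at that p, and the median of the 24 was 1.57. Without vehicle replicate 3 their median was 0.74, beside 0.83 for the 9 genes described here, and no test of a difference between the lists was made. Cyp2c11 encodes a male-specific steroid hydroxylase of rat liver. For Cyp2c11, the vehicle livers gave 7962, 24.1 and 165 normalized reads in replicates 1 to 3, and the ginkgetin livers gave 11515, 20123 and 20727. The log2 fold change was 5.72 (SE 1.75), with a limma adjusted p of 0.148. Vehicle replicate 1 was by far the highest vehicle library here. For Cyp2f4, the vehicle livers gave 426, 434 and 58.3 normalized reads in replicates 1 to 3, and the ginkgetin livers gave 1193, 823 and 1489. Here vehicle replicates 1 and 2 were alike, and the log2 fold change was 2.35 (SE 0.717), with a limma adjusted p of 0.147. Cyp2d4 had a log2 fold change of 1.54 (SE 0.539), with vehicle replicate 1 the highest vehicle library. Groups did not overlap in these 3 genes, which had the smallest p of their list. Over that list they did not overlap in 13 of 24 genes, all with ginkgetin higher, beside 11.4% of all genes.

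Cell type markers differed between the libraries too, and their part in these results was not tested. The 20 hepatocyte markers were all higher with ginkgetin (median 1.18), beside 48.6% of all genes. Without vehicle replicate 3, 15 of the 20 were higher (median 0.39), beside 49% of all genes. The 12 cholangiocyte markers were all lower (median -2.48, and -2.08 without vehicle replicate 3). Their summed levels were 2745, 3192 and 21788 normalized reads in vehicle replicates 1 to 3 and 619 to 1247 with ginkgetin. Stellate cell and fibroblast markers were lower in 9 of 11 (median -2.29), and without vehicle replicate 3, 4 of 11 were higher (median -1.25). Neutrophil markers were lower in 7 of 7 (median -2.33). They summed to 483, 407 and 1644 normalized reads in vehicle replicates 1 to 3 and to 78.7 to 345 in ginkgetin livers. Mpo, Elane, Camp and Cxcr2 were at 0 in at least 1 library. Macrophage (6 of 12 higher, median -0.01), endothelial (5 of 9 higher, median 0.01) and lymphocyte markers (1 of 10 higher, median -0.67) had medians nearer 0. With equal library totals these 3 medians were -0.53, -0.51 and -1.13, and with quantile scaling -0.21, 0.03 and -0.07. Without vehicle replicate 3 they were 0.57, 0.26 and -0.62. Albumin, Alb, took 2.89% of reads in vehicle replicate 3 and 6.56% to 12.1% in the other 5 libraries.

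**Figure D5:**
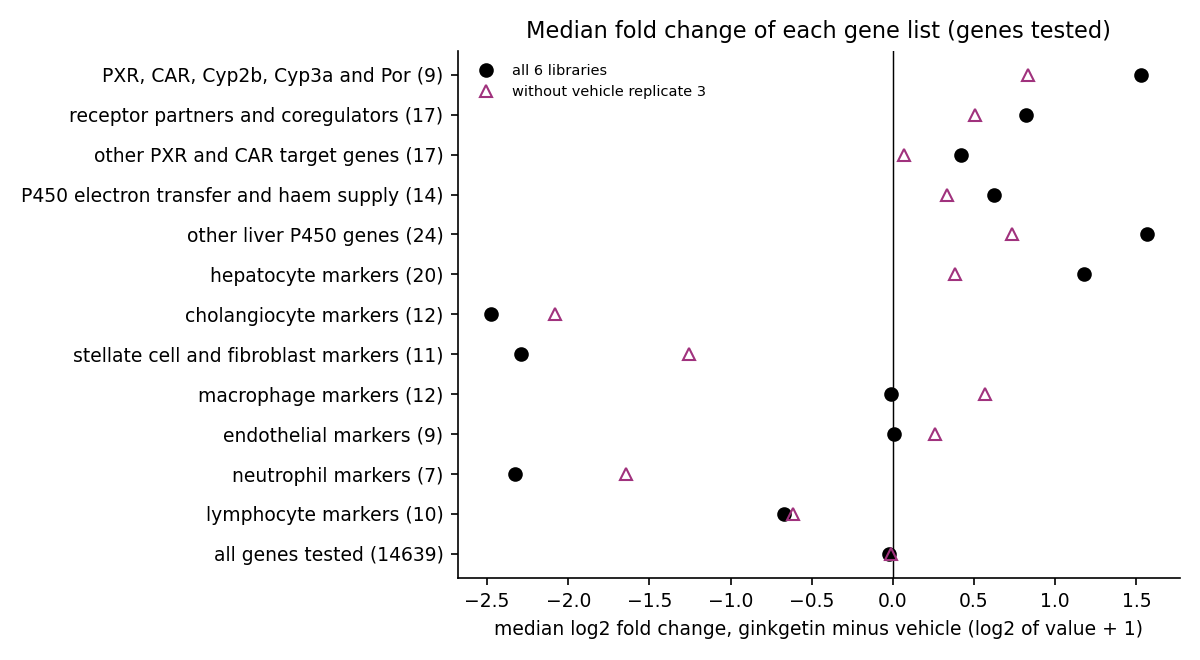
Median log2 fold change (ginkgetin minus vehicle, log2 of value + 1) of each gene list, with the number of genes tested, over all 6 libraries (filled) and without vehicle replicate 3 (open). The receptor and P450 gene set lies at 1.53 and 0.83, hepatocyte markers at 1.18 and 0.39, and all genes at -0.02 and -0.01.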

How the data were processed

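RNA of 6 rat liver samples was measured in 1 table of genes by samples, with SMARTER libraries, per the labels' protocols, and, per the submitters' processing notes, the build mRatBN7.2. The sources used here name no aligner, counter, annotation or strand setting. The signal deposited by the authors is a normalized read count whose normalization they do not name. Within 0.02, 99.67% of the values in each library were whole multiples of its smallest value above 0, so reads were recovered by division and rounding, for edgeR 4.0.16 and DESeq2 1.42.0 as alternatives. These 2 count tests ran on 14639 genes and called 0 and 1375.

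Numbered columns were matched to replicates by name. Columns labelled TAA were taken as vehicle because no other group remained. No 2 libraries were duplicates (chi-square per degree of freedom of their reads at least 49.9). The labels do not say that replicates are separate animals, so p-values here measure only how these samples spread, which may be technical.

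Groups were tested with limma 3.58.1 (R 4.3.3, trend and robust moderation) on log2(value + 1), keeping genes that reached 1 in at least 3 libraries, adjusted by Benjamini-Hochberg over all genes tested and tested on simulated data. Shares and relative levels were tested by exact permutation, two-sided, in scipy 1.17.1. Alternatives were other pseudocounts, filters, scalings and tests, a replicate block, and leaving out each library. The genes and lists were chosen with earlier results of these data known. Of each other list, only the 3 tested genes of smallest p could be named with values, besides Alb, Col1a1 and Krt19, and cell type lists are given by counts and medians. For each receptor the 3 genes of closest centred log2 profile were named, among genes with a mean above the median, except 1 that is not reported here. Of the other Cyp2b and Cyp3a genes listed, 0 of 6 were analysed. Promoter windows and symbols came from RefSeq, build GRCr8, and a window may differ from the start used in these livers.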

Additional observations from a re-analysis of the deposited data

How the results depend on the processing

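The count of genes past the threshold, 2 in the limma test, was 5 with a pseudocount of 5, 1 with quantile scaling, 94 with equal library totals, 27 without trend and robust moderation, 0 in edgeR (2893 at an unadjusted p under 0.05) and 1375 in DESeq2. With 1 library left out it ran from 0 to 696, with 696 without vehicle replicate 1 and 84 without vehicle replicate 3. Nr1i3, Cyp3a9 and Cyp3a23/3a1 passed without vehicle replicate 1 (log2 fold changes 2.41, 2.34 and 2.27), and Nr1i3 passed in DESeq2 (1.56). With 1 library left out, the log2 fold changes ran from 1.51 to 2.41 for Nr1i3, 1.36 to 2.34 for Cyp3a9 and 0.89 to 2.27 for Cyp3a23/3a1. Those of Nr1i2 (0.36 to 1.79), Cyp2b2 (0.49 to 2.69), Cyp2b3 (0.83 to 1.97), Cyp3a2 (1.73 to 3.44) and Cyp3a18 (0.58 to 2.48) stayed above 0. Scaling took 3 genes below these ranges. Nr1i3 was at 1.29 and Cyp3a9 at 1.24 with equal library totals, where the median of all genes was -0.53. Cyp3a23/3a1 was at 0.86 with quantile scaling. Por reversed, to -0.25 with quantile scaling, -0.33 with equal library totals, -0.061 without ginkgetin replicate 2 and -0.0051 without ginkgetin replicate 3. With 1 library left out it ran from -0.064 (without vehicle replicate 3) to 0.64. Relative to hepatocyte markers, Nr1i3 ran from 0.15 to 1.13, Nr1i2 from -0.049 to 0.35 and Cyp3a23/3a1 from -0.17 to 0.66 with 1 library left out. The difference in Cyp3a share ran from 3.40 to 13.3 percentage points for Cyp3a2, -0.21 to 0.67 for Cyp3a9, -5.37 to 0.64 for Cyp3a18 and -13.4 to -0.75 for Cyp3a23/3a1. The cause of these changes was not tested.

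Replicate numbers are shared between the groups. Correlations of same-numbered deviations from the group means were -0.16, 0.03 and -0.21 for replicates 1 to 3. Those of differently numbered libraries ran from -0.10 to 0.20. With 3 libraries per group, such values cannot decide whether same-numbered libraries were paired. With the number as a replicate block 0 genes passed (2382 at an unadjusted p under 0.05), and the log2 fold changes of the 9 genes were the same, 1.81 for Nr1i3 (adjusted p = 0.212). Reads limit the low values, since Cyp2b2 had 21 reads in vehicle replicate 3. Ces2c had only 4.63 to 12.2 normalized reads in the ginkgetin libraries.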
